A study of Mus musculus with 4 samples.

Results

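The genes described here encode ligands and receptors of the fibroblast growth factor (FGF) and platelet-derived growth factor (PDGF) families, chosen by symbol: Fgfr1, Fgfr2, Fgf2, Fgf7, Fgf10, Pdgfa, Pdgfb, Pdgfc, Pdgfd and Pdgfra. Of these 10 genes, 9 are among the 15424 genes of the deposited expression table. Pdgfd has no row in it, so its expression was not analysed here. RNA was sequenced from tumors grown under the skin of nude mice (hosts without mature T cells) from a transplant of R728T1 cells, which the labels call non-SMCs from an Rb/P53 mouse model (a term not spelled out), with small cell lung cancer as the cell type. The controls had a luciferase shRNA (shLuc) and the knockdown tumors a Taz shRNA (shTaz), and each group has 2 samples. R728T1 is the only line used, and the animals' age and the target sequence of the shRNA are not given in the sources used here. The question addressed is what Taz knockdown does to gene expression in these tumors.

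The values are FPKM (fragments scaled to transcript length and to library size), with 1 column per group. No value per sample was used, so no difference below has a replicate check, a test or an error, and the depth is unknown. Differences are shTaz minus shLuc in log2(FPKM + 1). The added 1 makes changes of weakly expressed genes look smaller than they were, and a difference of 1 or more in size is called 2-fold. They were computed for 11650 genes whose 2 columns averaged 1 FPKM or more and whose median difference was 0.12. Wwtr1, which encodes TAZ, was at 23.4 FPKM with shLuc and 15.1 FPKM with shTaz. The Wwtr1 difference of -0.60 was short of 2-fold, and 9.36% of all tested genes lay lower. Taz, the older symbol of Tafazzin, was at 13.7 and 9.50 FPKM. Yap1, the gene of the related coactivator YAP, was at 8.59 and 12.0 FPKM, a difference of 0.44. With the trend of the differences over transcript GC content removed, the difference was 0.07 for Yap1 and -1.03 for Wwtr1. Among neuroendocrine markers, 3 reached a mean of 1 FPKM, and Neurod1, Chga, Chgb and Calca had no row, so the labelled tumor type rests here on few of its markers. Ncam1, an adhesion molecule gene, was at 39.8 and 43.8 FPKM, and Uchl1 at 10.1 and 1.51 FPKM.

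FGFs and PDGFs are mostly secreted proteins that bind receptor tyrosine kinases, and both receptor families signal through RAS and ERK and through PI3 kinase. Most FGFs need heparan sulfate on the cell surface to bind their receptors, and splice forms of the receptors decide which FGFs bind. PDGF ligands work as dimers: PDGF-A acts through PDGFRα, PDGF-B binds both PDGF receptors, and PDGF-C and PDGF-D must be cut by proteases before they can bind. In tumors PDGFs are known as growth factors of fibroblasts and pericytes. In bulk tumors such as these, fewer cells of a type and less RNA per cell cannot be told apart, and tumor RNA cannot be told apart from that of the host.

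Promoter windows are shown for the member FGF ligand genes with the largest differences in opposite directions and for the single member whose window holds the searched TEAD motif, since TAZ acts on genes through TEAD factors. RefSeq (GRCm38.p6, the assembly of mm10) gives 9 windows for 8 of the members, each from 250 bases before to 50 bases after a start. Pdgfd is among these 8 members, while Fgfr1 and Pdgfb have no window. The windows are written 5′ to 3′ on the gene's strand, and capitals mark the motif GGAATG or its reverse CATTCC.
Fgf7, chr2:126034408-126034707, plus strand: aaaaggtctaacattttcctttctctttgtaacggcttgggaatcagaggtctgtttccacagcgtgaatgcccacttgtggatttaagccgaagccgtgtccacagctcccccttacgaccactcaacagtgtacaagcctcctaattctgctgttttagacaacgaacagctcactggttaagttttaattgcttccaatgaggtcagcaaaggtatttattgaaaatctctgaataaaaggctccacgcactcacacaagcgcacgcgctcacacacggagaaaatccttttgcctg
Fgf2, chr3:37348403-37348702, plus strand: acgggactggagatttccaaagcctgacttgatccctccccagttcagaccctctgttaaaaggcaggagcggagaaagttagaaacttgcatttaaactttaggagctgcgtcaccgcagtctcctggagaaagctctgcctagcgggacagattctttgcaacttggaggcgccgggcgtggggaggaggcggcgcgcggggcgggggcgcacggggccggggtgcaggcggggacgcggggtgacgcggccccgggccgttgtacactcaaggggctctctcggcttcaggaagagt
Pdgfc, chr3:81036166-81036465, plus strand: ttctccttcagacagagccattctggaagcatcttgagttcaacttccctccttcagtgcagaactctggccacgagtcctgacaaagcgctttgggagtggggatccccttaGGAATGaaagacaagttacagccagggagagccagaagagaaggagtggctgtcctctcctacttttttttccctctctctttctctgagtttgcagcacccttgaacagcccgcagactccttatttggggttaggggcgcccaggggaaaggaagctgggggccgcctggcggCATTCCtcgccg
The Pdgfc window holds the motif at bases 114 and 289, counted from 1 at its 5′ end. No other member window holds these letters, and across all 32851 windows of this length 14.7% hold them at least once and 1.36% at least 2 times. The AP-1 motif TGACTCA (or TGAGTCA) is in none of the 9 member windows and in 5.20% of all windows. The GC box GGGCGG (or CCGCCC) is in 4 of the 9, those of Fgf2 and Fgf10 and both of Pdgfa, and in 35.7% of all. No searched motif contains another, and a match here is a description of letters, not of a bound site. The window of Fgf7 has a GC content of 45.7%, that of Fgf2 62.7% and that of Pdgfc 55.0%, against a median of 52.7% over all windows.

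The members had no common direction. Of the 7 that reached a mean of 1 FPKM, 4 were higher and 3 lower in the shTaz column (3 and 4 with median-ratio scaling or the length trend removed, where Fgfr1 changed sign), and their median difference of 0.12 was that of all genes. None of the 7 differed 2-fold, against 7.21% of all tested genes (3.96% higher and 3.25% lower). The member closest to the limit was Fgf7 at 0.99, and the lowest was Pdgfb at -0.87. Fgfr2 and Fgf10 stayed under a mean of 1 FPKM and are given by their levels alone. In the shLuc column the levels, which are scaled per length, ran in the order Pdgfa, Pdgfb, Fgfr1, Pdgfra, Pdgfc, Fgf7, Fgf2, Fgf10 and Fgfr2. In the shTaz column Fgfr1 stood above Pdgfb, and Fgf7 stood above Pdgfra and Pdgfc. No spread between samples is at hand to say which neighbours in this order differ.

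**Figure D1:**
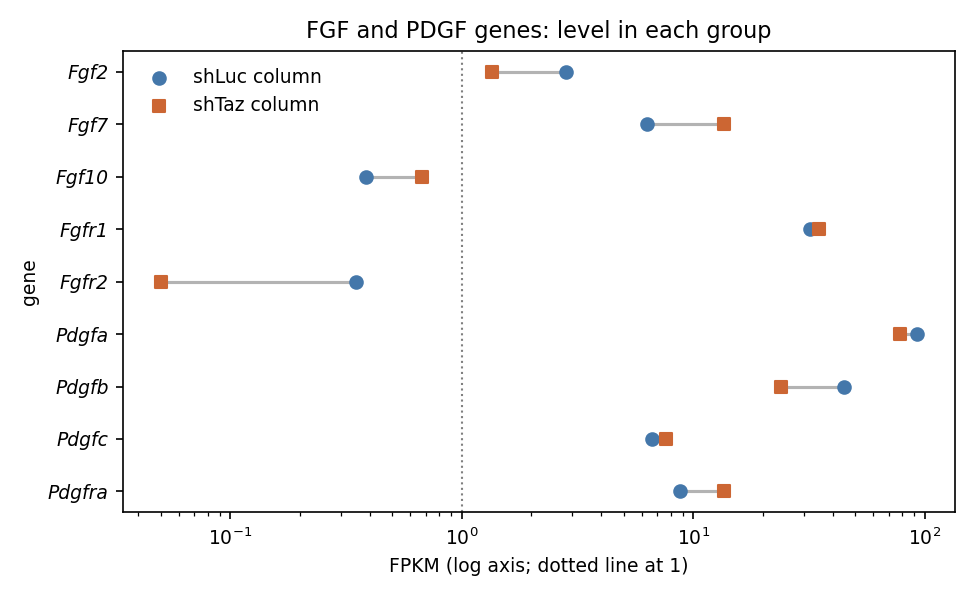
FPKM of the 9 listed members (rows) in the shLuc column (circles) and the shTaz column (squares) on a log axis, 1 value per gene and group with no error. Fgf7, Fgf10 and Pdgfra lie to the right in the shTaz column and Fgf2, Pdgfb and Fgfr2 to the left, while Fgfr1, Pdgfa and Pdgfc nearly overlap. Fgf10 and Fgfr2 are under a mean of 1 FPKM.

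Among the FGF ligands, Fgf7 and Fgf2 differed in opposite directions. Fgf7, or keratinocyte growth factor, which mesenchymal cells make for epithelium, was at 6.32 FPKM with shLuc and 13.6 FPKM with shTaz. The plain ratio of the levels was 2.14, and 95.9% of all tested genes had a lower difference. Fgf7 (Entrez 14178) spans positions 126034658 to 126091185 of chromosome 2 in mm10, plus strand. Its longest annotated transcript is AT-rich, with a GC content of 38.0%.

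Fgf2, basic FGF, which leaves cells without a signal peptide and acts on fibroblasts and endothelium, was at 2.81 FPKM with shLuc and 1.35 FPKM with shTaz. That is 47.9% of the control level and a difference of -0.70, and 6.996% of all tested genes lay lower. Fgf2 (Entrez 14173) spans positions 37348346 to 37410108 of chromosome 3, plus strand. Its exons share 640 of 6782 bases with Nudt6, a gene on the opposite strand. Nudt6 was at 6.22 and 8.80 FPKM, a difference of 0.44. Whether counting used strand is not given in the sources used here, so reads of the shared bases cannot be assigned and the Fgf2 level is uncertain. Fgf7 stood 2.25 times as high as Fgf2 in the shLuc column and 10.1 times as high in the shTaz column.

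Fgf10, which shares its main receptor form with Fgf7 and is known for lung branching, was at 0.387 FPKM with shLuc and 0.675 FPKM with shTaz. Both values are low, and Fgf10 was not among the genes set against the 2-fold limit. It spans positions 118669791 to 118792115 of chromosome 13, plus strand (Entrez 14165).

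The rest of the FGF family was represented by few genes. Of 22 other FGF family ligands and receptors, 12 had a row and 4 reached a mean of 1 FPKM. Fgf18, a ligand known from cartilage and lung development, was at 8.75 and 3.23 FPKM with shLuc and shTaz, a difference of -1.20 and the only 2-fold one. The Fgf18 difference was -0.98 with the length trend removed and -0.83 with both the GC and the length trend removed, so that the list then held no 2-fold gene. Fgf13 (2.11 and 1.34 FPKM) and Fgf11 (0.843 and 1.66 FPKM) encode FGF homologous factors that stay inside the cell. Their differences of -0.41 and 0.53 had opposite signs. Fgf18 was the most abundant FGF gene in the shLuc column and Fgf7 in the shTaz column. The FPKM of all 13 listed FGF genes summed to 23.0 and 22.5, so that the sum was nearly equal while its makeup in these 2 columns was not. Fgf7 made up 27.5% of it with shLuc and 60.2% with shTaz, Fgf18 38.0% and 14.4%, and Fgf2 12.2% and 5.98%. These shares come from the deposited FPKM with no trend removed. With the GC trend removed, the difference was 0.39 instead of 0.99 for Fgf7 and -1.04 instead of -1.20 for Fgf18.

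**Figure D2:**
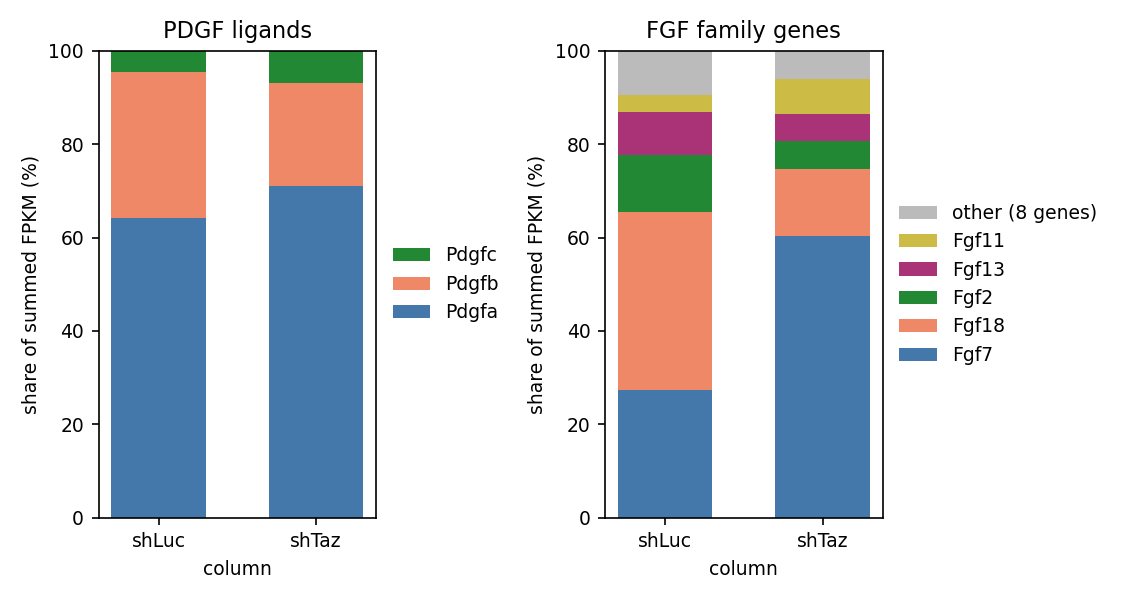
Share of the summed FPKM (vertical axis, percent) held by each gene among the 3 listed PDGF ligands (left) and the 13 listed FGF family genes (right), 1 bar per column of the table. The FPKM are as deposited, with no GC or length trend removed. Pdgfb takes 31.1% of the PDGF bar for shLuc and 21.9% for shTaz, and Fgf7 takes 27.5% and 60.2% of the FGF bars.

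Fgfr1 was the most abundant FGF receptor kinase gene, and its level was nearly equal in the columns. Its product is the receptor that FGF2 binds on mesenchymal cells. Fgfr1 was at 32.1 FPKM with shLuc and 34.8 FPKM with shTaz, a difference of 0.12, in the middle of all tested genes (49.9% lay lower). It held 96.4% and 98.2% of the summed FPKM of Fgfr1, Fgfr2 and Fgfr3. Fgfr1 (Entrez 14182) spans positions 25513654 to 25575718 of chromosome 8, plus strand.

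Fgfr2, whose epithelial splice form is the main receptor of FGF7 and FGF10, was at 0.349 and 0.0502 FPKM. Fgfr1 stood 91.9 times as high in the shLuc column. With the depth unknown, it cannot be said whether values this low differ, and gene-level FPKM does not separate the splice forms. Fgfr2 (Entrez 14183) lies on chromosome 7 on the minus strand, and its annotated span from 130162451 to 133123350 shares exon bases with Ctbp2. Fgfr3 was at 0.860 and 0.588 FPKM. Fgfrl1, an FGF receptor relative without a kinase domain, was at 15.9 and 12.4 FPKM. Fgf7 and Fgf10 were thus listed beside very low Fgfr2, and Fgf10 was itself under a mean of 1 FPKM. Of 10 keratinocyte and epithelial markers 6 were tested and none differed 2-fold, against 7.21% of all tested genes. But 1 marker was 2-fold higher with a pseudocount of 0.1 or with the GC trend, the length trend or both removed. The most abundant, Krt18 and Krt8, were at 70.2 and 54.1 FPKM and at 41.5 and 51.2 FPKM, and the whole list summed to 126 and 122 FPKM, with Trp63 at 0 in the shLuc column and Krt1 without a row. Their part in the Fgf7 and Fgfr2 values was not tested.

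Pdgfa and Pdgfb were the most abundant members in the shLuc column, and Pdgfb was lower in the shTaz column. Pdgfb, which endothelial cells use to recruit pericytes, was at 44.9 FPKM with shLuc and 24.0 FPKM with shTaz, or 53.5% of the control level. The difference was -0.87, and 4.33% of all tested genes lay lower. Pdgfb (Entrez 18591) spans positions 79995874 to 80014977 of chromosome 15, minus strand. Its longest transcript is GC-rich, at 60.0%.

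Pdgfa, the ligand gene for PDGFRα, was at 92.5 FPKM with shLuc and 78.1 FPKM with shTaz, above 95.7% and 95.5% of the listed genes. Its difference of -0.24 was smaller than that of Pdgfb, and 24.8% of the tested genes lay lower. Exons of Pdgfa share 813 of 3119 bases with the antisense gene 6330403L08Rik, so its level carries the same uncertainty of strand as that of Fgf2. Smaller overlaps with genes on the opposite strand are annotated for Pdgfra (456 of 10024 exon bases with Gm42802), Fgfr1 (164 of 9875), Pdgfc (147 of 5089) and Fgf10 (123 of 4601), to which the same limit applies. Pdgfc, whose product is activated by cutting off its CUB domain, was nearly equal, at 6.63 and 7.66 FPKM, a difference of 0.18. Pdgfa (Entrez 18590) spans positions 138976014 to 138997370 of chromosome 5, minus strand, and Pdgfc (Entrez 54635) positions 81036416 to 81214040 of chromosome 3, plus strand. The summed FPKM of the 3 ligands was 144 and 110, and the share of Pdgfa was 64.3% and 71.1%. Pdgfa stood 2.06 times as high as Pdgfb in the shLuc column and 3.25 times as high in the shTaz column.

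The PDGF receptor genes differed in opposite directions. Pdgfra, a receptor of mesenchymal cells and fibroblasts, was at 8.75 FPKM with shLuc and 13.5 FPKM with shTaz, a difference of 0.58, with 82.2% of the tested genes lower. Pdgfrb, the receptor of pericytes and fibroblasts, was at 32.9 and 22.5 FPKM, a difference of -0.53. Pdgfrb stood 3.76 times as high as Pdgfra in the shLuc column and 1.66 times as high in the shTaz column. Pdgfa stood 10.6 and 5.77 times as high as Pdgfra. Pdgfra (Entrez 18595) spans positions 75152292 to 75198215 of chromosome 5, plus strand.

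Pdgfra was higher while most fibroblast markers were lower. Of 12 fibroblast markers 11 were tested, with a list median of -1.22. Among these 11, 7 were 2-fold lower (against 3.25% of all tested genes) and none 2-fold higher (against 3.96%). The collagen genes Col1a1 and Col3a1 were at 1375 and 841 FPKM and at 372 and 371 FPKM, and the list summed to 2210 and 1389 FPKM, with no marker at 0. Of 8 tested pericyte and smooth muscle markers, 2 were 2-fold higher and 2 lower, 5 were below 0, and the list median was -0.74. These counts stayed 2 and 2 with median-ratio scaling. They were 2 higher and 4 lower with a pseudocount of 0.1, and 1 and 3 with the length trend removed. With both the GC and the length trend removed they were 1 and 2. Acta2, smooth muscle actin, was at 50.7 and 29.5 FPKM, Mcam at 17.6 and 22.002 FPKM, and the list of 10 summed to 95.4 and 73.7 FPKM, with none at 0. Of 9 tested endothelial markers 7 were below 0 and none 2-fold different, with a list median of -0.46 against 0.12 over all tested genes. Plvap was at 67.2 and 36.2 FPKM and Egfl7 at 20.9 and 14.9 FPKM, and the list of 10 summed to 169 and 113 FPKM, with none at 0. None of 10 macrophage markers differed 2-fold, against 7.21% of all tested genes. C1qa was at 1868 and 1470 FPKM and Lyz2 at 920.1 and 1309 FPKM, and the sum was 3854 and 3893 FPKM, with none at 0. The part of these cells in the levels of Pdgfra, Pdgfrb, Pdgfb and Fgf2 was not tested.

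Over all genes the difference moved with the base composition of transcripts, and the members followed this in part. The tested genes with a transcript annotation were divided into 10 equal groups by GC content. In the group with the lowest GC content, which holds Fgf7, the median difference was 0.56, and in the group with the highest, which holds Pdgfb, it was -0.38. Within their own groups, 86.3% of genes lay lower than Fgf7 and 13.3% lower than Pdgfb. Fgf2 went against its group: the median there was 0.46, and 1.44% of 1108 genes lay lower than Fgf2. With the GC trend removed, the difference of Fgf7 was 0.39, that of Pdgfb -0.50, that of Pdgfra 0.33 and that of Fgf2 -1.18. Fgf2 was then the only 2-fold different member, where 4.65% of all genes were, and again with both the GC and the length trend removed, where 4.45% were. Fgf7 and Fgf2 were past the limit with a pseudocount of 0.1, as were 13.3% of all genes, and Pdgfb with median-ratio scaling, as were 6.89%.

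**Figure D3:**
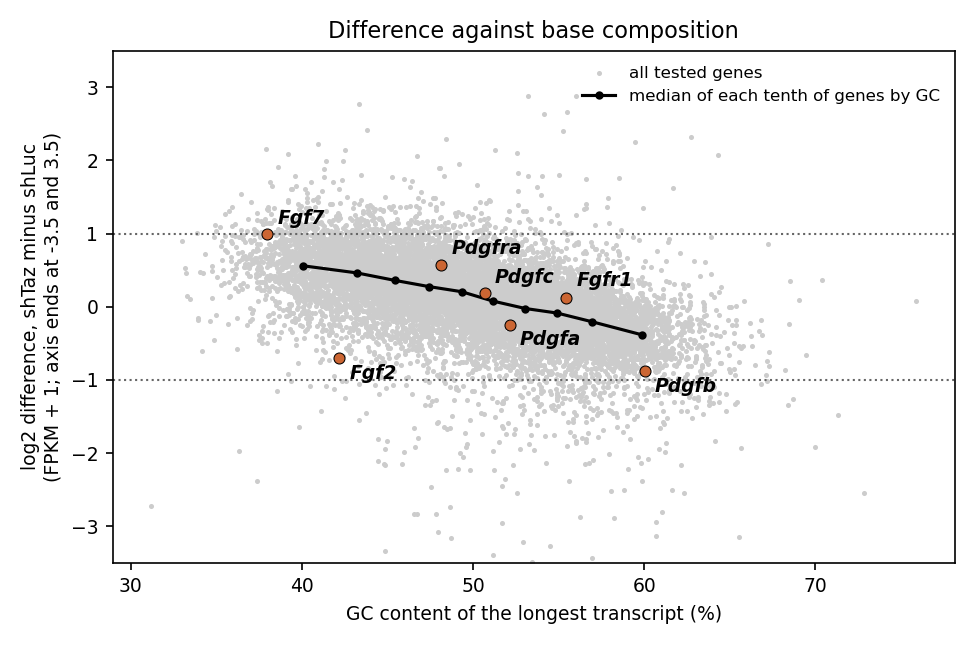
Log2 difference (vertical axis, shTaz minus shLuc on FPKM + 1) against the GC content of the longest transcript (percent) for all tested genes (grey), with the 7 tested members named, the median of each of 10 groups of genes by GC as a black line and dotted lines at 2-fold. Fgf7 (0.99) and Pdgfb (-0.87) lie at opposite ends of the falling line, and Fgf2 (-0.70) lies far below it.

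Contrasts between the differences of a pair of genes were also computed. The difference of Fgf7 exceeded that of Fgf2 by 1.69 on the log2 scale, and by 1.58 with the GC trend removed. Pdgfra exceeded Pdgfrb by 1.11, and by 0.75 with the GC trend removed. Pdgfb lay 0.63 under Pdgfa (a contrast of -0.63), and the contrast was -0.23 with the GC trend removed. Fgf7 exceeded Fgf18 by 2.19, and by 1.43 with the GC trend removed. The differences of Fgf7 and Pdgfra were above 0, and those of Fgf2 and Pdgfb below 0, in each of the 9 alternatives run in which they had a value (Fgf2 was under a mean of 5 FPKM in 1 of them). Alternatives that only changed which genes were kept repeat the deposited differences, so no sign could change in them.

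**Figure D4:**
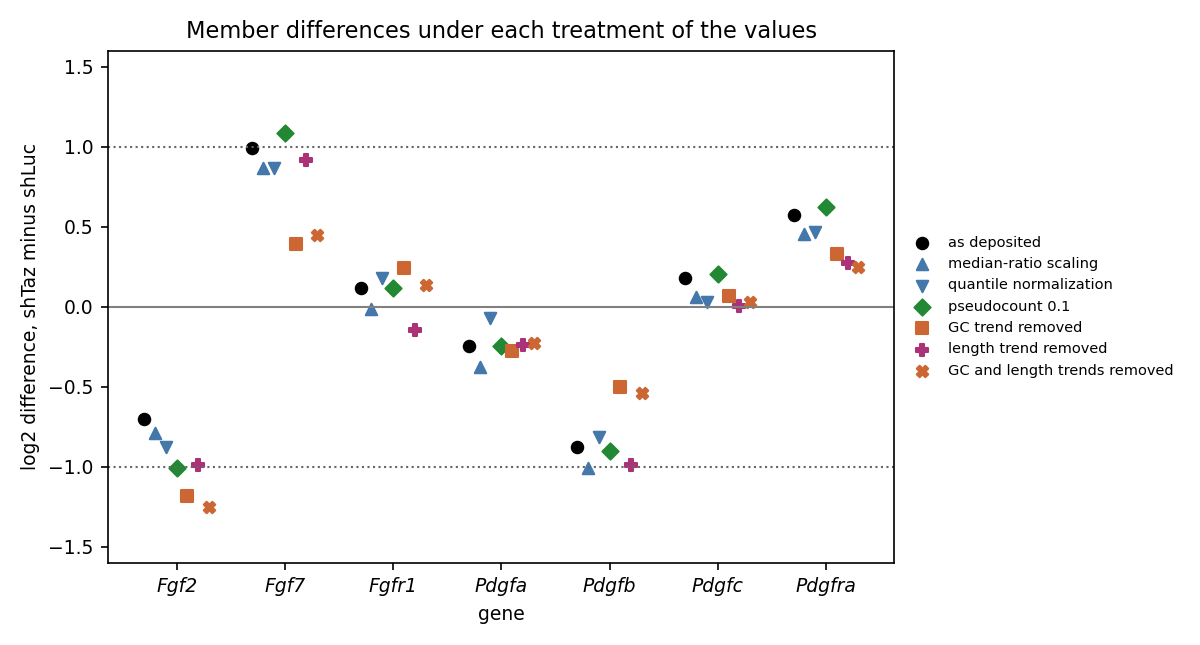
Log2 difference (vertical axis) of the 7 tested members from the values as deposited (black circles), after 2 other scalings of the columns, with a pseudocount of 0.1 and with the trends of GC content or transcript length removed, with dotted lines at 2-fold. Fgf7 runs from 0.39 to 1.09, Fgf2 from -1.25 to -0.70, and Fgfr1 lies on both sides of 0, from -0.15 to 0.24.

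Among genes that bind or present FGFs, Gpc1 was lower and Sulf1 higher in the shTaz column. Of 25 FGF binding, co-receptor and heparan sulfate genes 20 were tested, with a median of 0.22. Among these 20, 1 was 2-fold higher (against 3.96% of all tested genes) and 2 were lower (against 3.25%). Gpc1, the cell-surface proteoglycan glypican-1, was at 52.3 FPKM with shLuc and 10.4 FPKM with shTaz, a difference of -2.22. Gpc3, a related glypican, was at 2.94 and 0.320 FPKM (-1.58). Sulf1, which removes sulfate groups from heparan sulfate outside the cell, was at 18.2 and 42.1 FPKM, a difference of 1.17, or 0.86 with the GC trend removed. The syndecan genes Sdc1 to Sdc4 were between 41.6 and 153 FPKM in both columns, with differences from -0.12 to 0.43.

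None of the 8 tested genes of 11 for PDGF processing and binding differed 2-fold, against 7.21% of all tested genes, and the list median was -0.13. Plat, the protease that activates PDGF-C, was at 36.8 and 24.5 FPKM, and Sparc, a matrix protein that binds PDGF, at 1601 and 1313 FPKM. Other genes of class III receptor kinases and their ligands, with the receptor-like Pdgfrl, gave 6 tested of 9 and none 2-fold different. Pdgfrl was at 33.8 and 21.6 FPKM, a difference of -0.62 that became 2-fold, at -1.04, with the GC trend removed. The cytokine gene Il34 was at 25.7 and 15.8 FPKM and Flt3l at 5.64 and 3.18 FPKM. The macrophage growth factor receptor gene Csf1r was at 132 and 174 FPKM and its ligand gene Csf1 at 76.1 and 93.5 FPKM.

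Of 29 receptor-proximal signalling genes 1 was 2-fold higher and none lower, near the 3.96% and 3.25% of all tested genes. The list median of 0.36 was 0.06 with the GC trend removed. Crk, an adaptor protein gene, was at 5.22 and 14.1 FPKM, a difference of 1.28, or 0.85 with the GC trend removed. Ptpn11, which encodes the phosphatase SHP2, was at 6.14 and 12.2 FPKM.

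Of 9 tested ERK feedback inhibitors 1 was 2-fold higher (against 3.96% of all tested genes) and 1 lower (against 3.25%), with a list median of 0.36. Dusp4, a phosphatase that switches off ERK, was at 3.94 and 10.8 FPKM (1.25). Spry1, an inhibitor of receptor tyrosine kinase signalling, was at 55.8 and 27.2 FPKM (-1.01), or -0.81 with the GC trend removed. None of 8 tested genes of ERK-induced transcription factors and cyclin D1 differed 2-fold. Fosl1 was at 4.08 and 7.64 FPKM, a difference of 0.77 that became 2-fold without the GC trend (1.06) or without both trends (1.10), and Ccnd1, the cyclin D1 gene, at 71.0 and 94.4 FPKM, and the list median was -0.05.

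**Figure D5:**
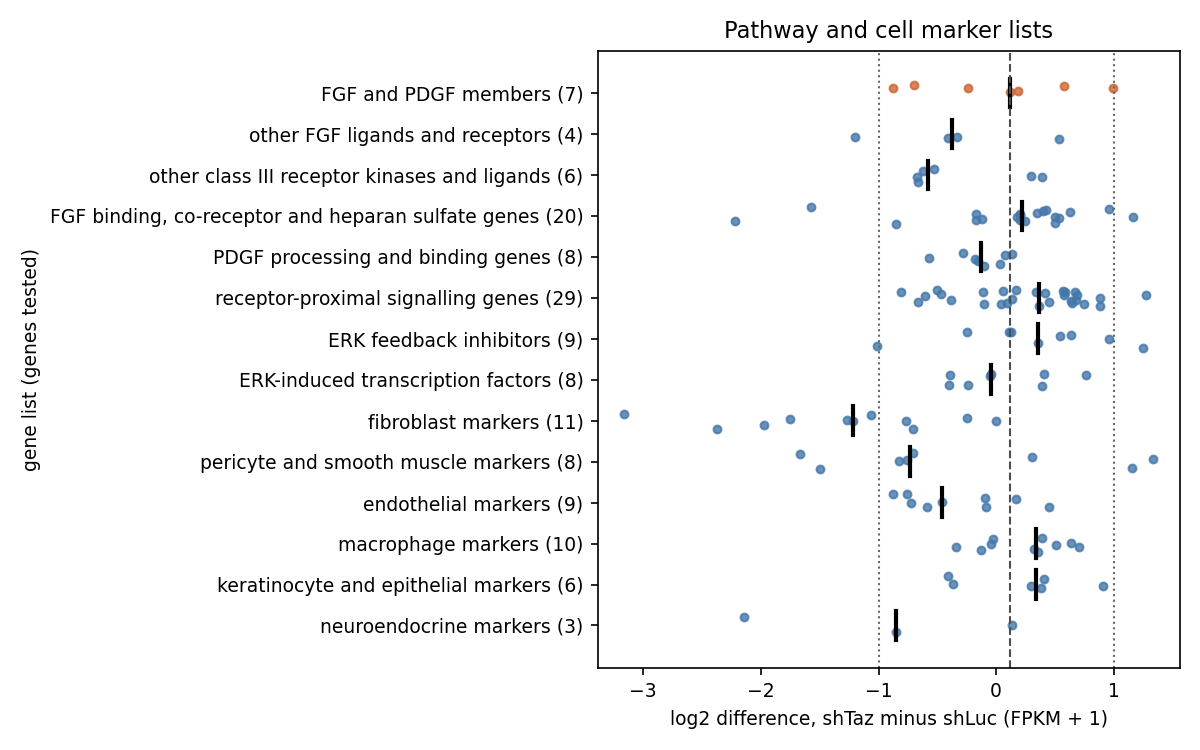
Log2 difference (horizontal axis, shTaz minus shLuc on FPKM + 1) of each tested gene by list, with the number tested in parentheses, black bars at list medians, a dashed line at the median of all genes (0.12) and dotted lines at 2-fold. The 7 members spread from -0.87 to 0.99 around the dashed line, whereas the fibroblast markers lie to its left with a median of -1.22.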

How the data were processed

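RNA of 4 subcutaneous tumor samples was sequenced. Reads were trimmed and aligned by the submitters, whose processing notes name Trim Galore, TopHat and mm10; versions, the FPKM program, the annotation, the strand setting and how the 2 samples of a group were joined are not given in the sources used here. The authors deposited FPKM values in 1 column per group; each column's heading matches a label that both samples of its group carry. No row is at 0 in both columns.

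Differences were computed from the deposited FPKM without further scaling, with a pseudocount of 1 and a mean of at least 1 FPKM. The planned limma fit could not be made with 1 column per group. Transcript length and GC content (95.1% of tested genes) came from the longest transcript in GENCODE M21. Gene positions, counted from 1, came from the gene records of GENCODE M21. Trends were removed with lowess (span 0.3, statsmodels 0.14.6, Python 3.11.15), tested on simulated data. The members and 13 gene lists were chosen with earlier results of these data known. All members were named, and of each pathway list up to 4 genes that differed 2-fold or, where fewer than 2 did, the 2 that differed most; of other FGF and class III receptor genes, any averaging 1 FPKM or more; of marker lists, the 2 most abundant. The syndecans, Fgfr3 and Nudt6 were named after their values were seen.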

Additional observations from a re-analysis of the deposited data

How the results depend on the processing

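No paired analysis was possible because the table has 1 column per group, and for the same reason no replicate could be left out. Removal of the GC trend alone or the length trend alone was chosen after seeing the data. Over 9 alternatives, 55 of 62 member differences kept their sign and their side of 2-fold. Part of these 55 was fixed in advance. Some alternatives altered only the choice of genes, so each member value in them equals the deposited one and could not move. Only the alternatives that changed the pseudocount, the scaling or the trends could move a member value. None of the 7 members differed 2-fold as deposited, but Fgf7 (1.09) and Fgf2 (-1.01) did with a pseudocount of 0.1 (2 members, where 13.3% of all genes did), Pdgfb (-1.01) with median-ratio scaling (1 member, where 6.89% did), and Fgf2 with the GC trend removed (1 member) and with both trends removed (1 member, -1.25, where 4.45% did). The members' median, which is there the value of Fgfr1, was -0.017 with median-ratio scaling and -0.15 with the length trend removed, so neither has a stable sign. The list median of PDGF processing genes was 0.037 with no filter and 0.049 with quantile normalization, that of ERK-induced genes 0.11 without both trends and 0.18 without the GC trend, and that of epithelial markers -0.038 over genes averaging 5 FPKM or more. Of 234 counts of 2-fold genes in the lists, 31 moved by over 1.5 times. With a pseudocount of 0.1, 3 of 29 receptor-proximal genes, 2 of 9 ERK feedback inhibitors and 2 of 20 FGF binding genes were higher. So were 996 of all 11650 genes. With that pseudocount 4 of 8 pericyte and smooth muscle markers and 2 of 3 neuroendocrine markers were lower, as were 548 of all genes. With median-ratio scaling 1 of 9 endothelial markers was lower, as were 493 of all genes.

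Over all genes, 461 were 2-fold higher and 379 lower as deposited. The numbers were 996 and 548 with a pseudocount of 0.1, 219 and 215 over genes averaging 5 FPKM or more, 310 and 493 with median-ratio scaling, 294 and 455 with quantile normalization, 189 and 304 without both trends, 166 and 349 without the GC trend, and 297 and 389 without the length trend. Median-ratio scaling moved the median of all genes from 0.12 to 0.00. Depth is unknown, which limits Fgfr2, Fgf10 and Fgf2 most.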
